A study of Mus musculus with 425 samples.

Results

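The genes described here are 40 genes of cell division: 24 that act in mitosis, such as Top2a, Cdk1 and Cenpf, and 16 that act in S phase, when DNA is copied, such as Pcna, Rrm2 and the Mcm genes. They were chosen by name, with earlier results of these data known. All 40 were found among the 15741 gene names of the deposited count table. Dividing cells switch the S-phase genes on first, at the start of DNA replication, and the mitosis genes later, in G2 and mitosis, while resting cells keep both groups low. Microglia, the macrophages of brain tissue, arise from precursors that enter the brain in the embryo and multiply there, and perivascular macrophages (PVMs) are the macrophages that line its vessels.

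The data were counts of unique molecular identifiers (UMIs, 1 per captured transcript molecule) in single CD-1 mouse cells, captured on microfluidic chips after papain digestion. The groups compared were 25 embryonic ventral midbrain cells on 16 chips, 11 embryonic cortex S1 cells, 7 embryonic dorsal horn cells and 356 postnatal cells of days 16 to 31 from Amygdala, DentGyr, SN-VTA, ZonaIncerta, cortex S1, dorsal horn, hippo CA1, hypothalamus and striatum. All embryonic cells share 1 age label, E11.5-E18.5, and no label gives a genotype or treatment beyond the strain. The labels name no animals and no chip held cells of both stages, so stage, chip and, for the ventral midbrain, region cannot be told apart.

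The median depth was 4135 UMIs per cell in the ventral midbrain, 2242 in embryonic cortex S1, 2161 in embryonic dorsal horn and 1927 in postnatal cells. The macrophage receptor gene Csf1r had UMIs in 25 of 25 ventral midbrain cells, 11 of 11 embryonic cortex S1 cells, 7 of 7 embryonic dorsal horn cells and 348 of 356 postnatal cells. By marker panels that contain no cell cycle gene, 24 of the ventral midbrain cells were microglia-like and 1 was PVM-like, with 137 microglia-like and 219 PVM-like postnatal cells. The 7 embryonic dorsal horn cells carried myelin RNA, with 140210 CPM (counts scaled to one common library total) summed over 14 oligodendrocyte markers against 1116 in the ventral midbrain. Of the 11 embryonic cortex S1 cells, 2 had UMIs of the myelin gene Mog and 7 of the myelin gene Mbp. Mbp stood at 1543 CPM there, against 49.6 in the ventral midbrain and 1738 in postnatal cells. Myelin RNA goes against the embryonic label of these dorsal horn and cortex S1 cells, so the ventral midbrain is given on its own and the other embryonic cells beside it.

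Mitosis RNA was concentrated in a subset of the embryonic ventral midbrain cells. The 24 mitosis members summed to 698 UMIs in these 25 cells, or 5769 CPM (exact Poisson 95% interval 5349 to 6213), against 354 CPM (314 to 396) in postnatal cells. The per-cell sum ran from 0 to 154 UMIs with a median of 1. Of the 25 cells, 8 carried UMIs of 10 or more different mitosis members, and these 8 cells held 665 of the 698 UMIs (95.3%). Poisson and binomial intervals in this text cover counting error only.

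The 8 cells lay on 6 of the 16 ventral midbrain chips. Cell 20 had 154 mitosis UMIs of 22 members, with the ubiquitin-conjugating enzyme gene Ube2c the most abundant at 22 UMIs. Cell 17 had 152 UMIs of 23 members and cell 15 had 98 of 19, each led by Top2a, the topoisomerase that untangles sister DNA. Cell 13 had 83 UMIs of 10 members. Cells 14 and 21 had 64 and 61 UMIs of 17 and 16 members, both led by Cdk1, the kinase that drives entry into mitosis. Cells 19 and 12 had 34 and 19 UMIs, each of 11 members. The other 17 cells had between 0 and 14 mitosis UMIs, so the sums of the 2 sets of cells did not overlap, which the choice of the 8 cells by their mitosis members largely fixes.

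**Figure D1:**
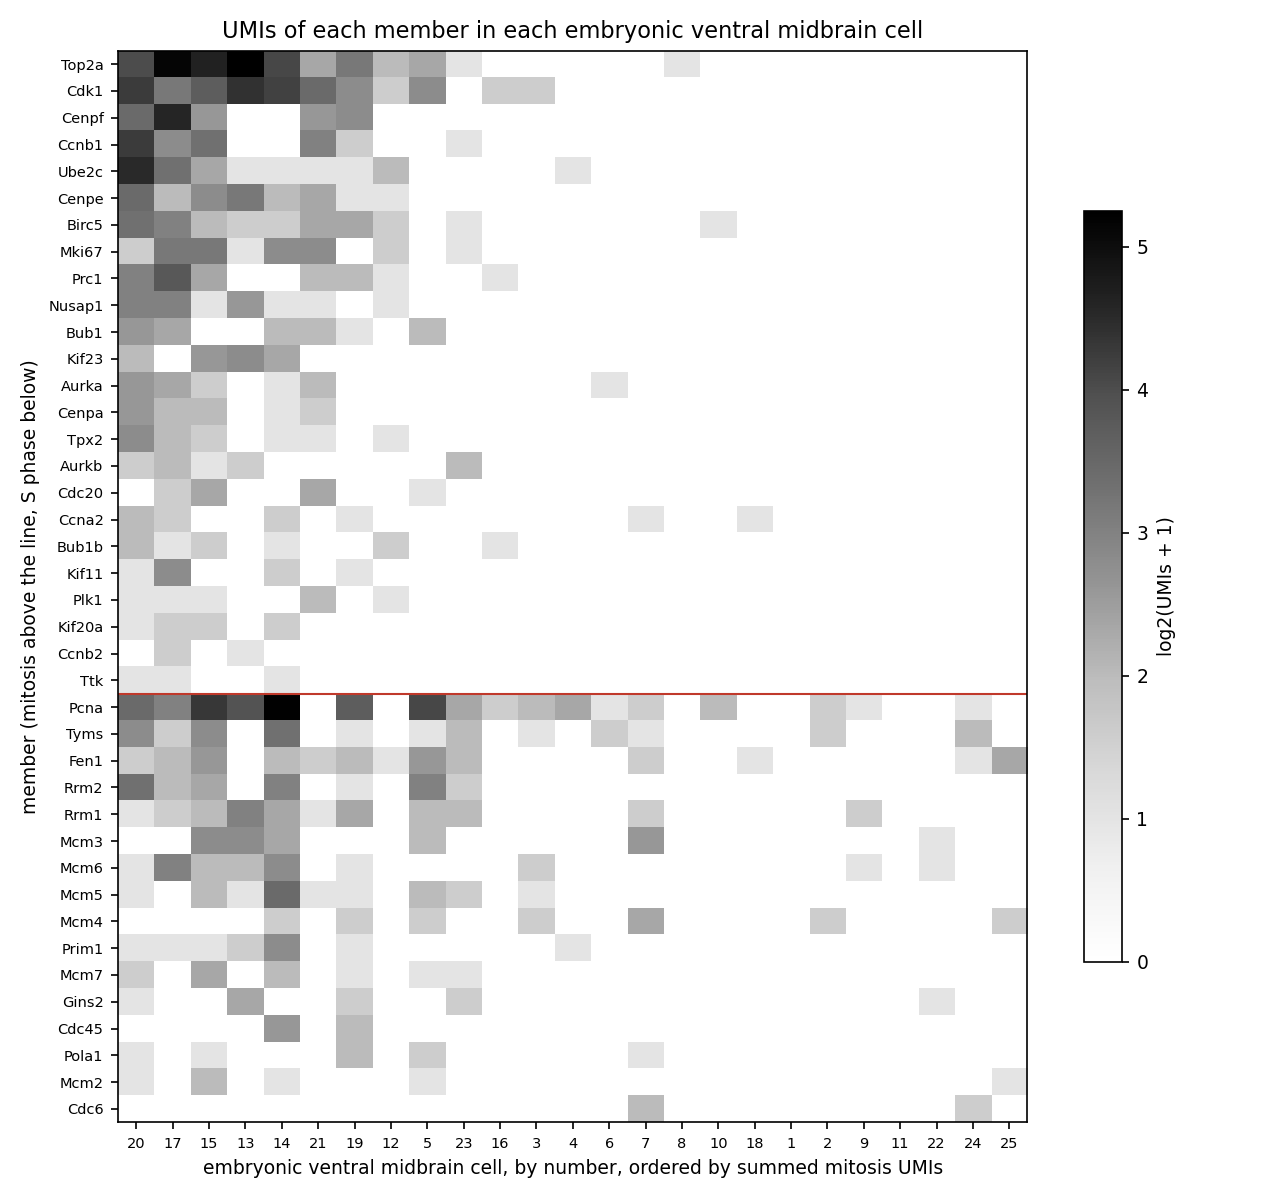
UMIs of the 24 mitosis members (above the line) and 16 S-phase members (below) in each of the 25 embryonic ventral midbrain cells, shaded by log2(UMIs + 1) and ordered from left to right by summed mitosis UMIs. The 8 columns at the left hold 665 of the 698 mitosis UMIs, while S-phase UMIs also appear further right, as in cells 5, 23 and 7.

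The S-phase members were spread over more cells. They summed to 426 UMIs in the ventral midbrain, or 3521 CPM (3194 to 3872), with a per-cell range of 0 to 96 UMIs. The 8 cells rich in mitosis RNA held 292 of these UMIs (68.5%). Cell 14 had 96 S-phase UMIs of 13 members beside its 64 mitosis UMIs. Cell 5 had 44 S-phase UMIs of 11 members and 14 mitosis UMIs, cell 7 had 20 and 1, and cell 23 had 20 and 7. The opposite balance was seen in cell 21, with 4 S-phase and 61 mitosis UMIs, and in cell 12, with 1 and 19. By the presence of 2 or more different members, 9 ventral midbrain cells carried both groups, 9 carried S-phase members only, 2 carried mitosis members only and 5 carried neither. Over the 25 cells, the Spearman correlation of the summed mitosis and S-phase shares of UMIs was 0.50, a description in which the points share their library totals.

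The 8 cells carried macrophage RNA. Summed over 15 pan-macrophage genes, it made up 1.94% to 4.60% of UMIs (median 2.84%) in the 8 cells and 1.43% to 6.83% (median 3.51%) in the other 17, and each of the 8 had UMIs of at least 12 of these genes. The microglia list had a median of 1.80% (1.42% to 3.22%) in the 8 cells and 2.80% (0.786% to 6.62%) in the other 17. Markers of radial glia and neuroblasts, the dividing and young neural cells of the embryo, were also present in the ventral midbrain. Summed over 25 listed genes they stood at 10116 CPM there and 2301 in postnatal cells, with UMIs in 25 of 25 ventral midbrain cells. They made up 0.558% to 2.76% of UMIs (median 0.970%) in the 8 cells and 0.232% to 1.53% (median 0.825%) in the other 17. The 2.76% was that of cell 17, with 283 UMIs of 13 listed genes beside its 152 mitosis UMIs. Across the 25 cells the rank correlation of mitosis RNA with this list was 0.02, with the pan-macrophage list -0.28, and with the microglia and perivascular macrophage lists -0.37 each. The part of neural RNA in the mitosis UMIs was not tested. The 8 cells were also deeper, with a median of 6522 UMIs against 3910.

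**Figure D2:**
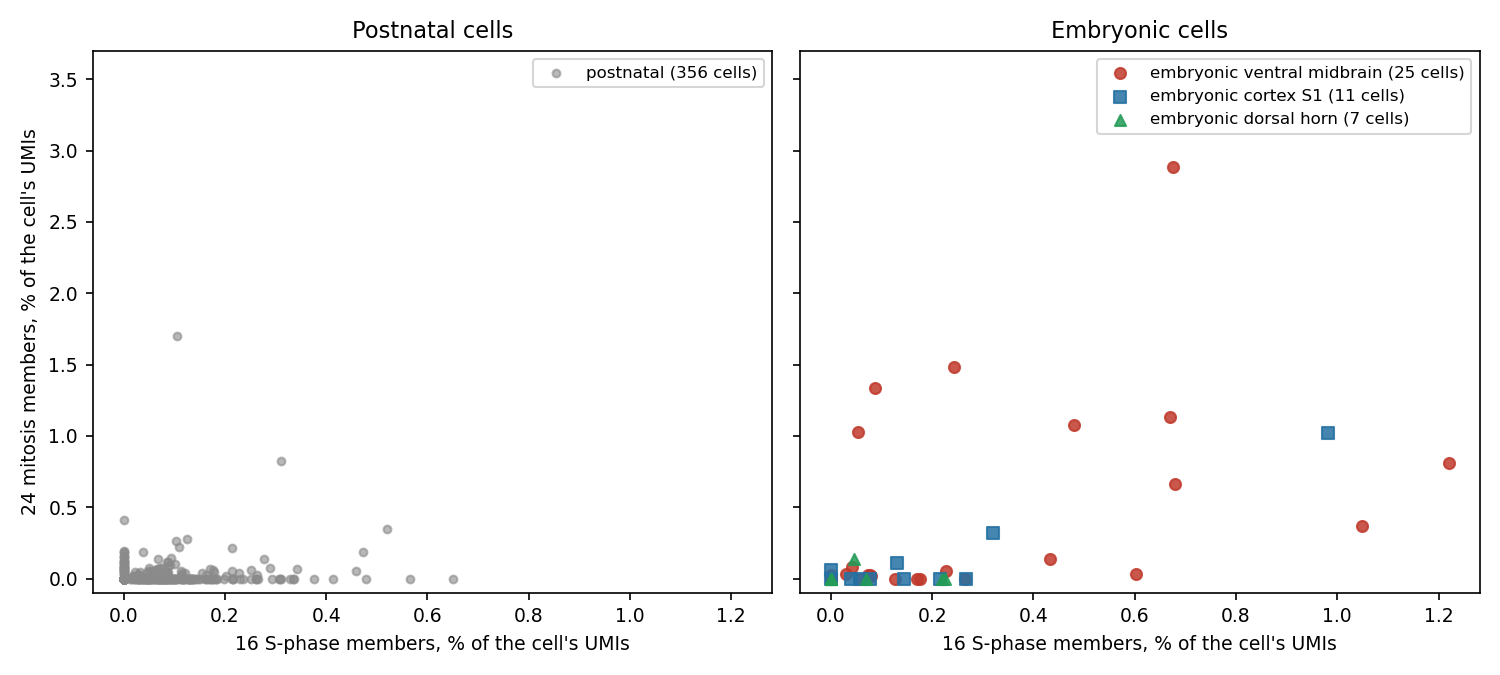
Each point is 1 cell, placed by the share of its UMIs from the 16 S-phase members (horizontal) and from the 24 mitosis members (vertical), for 356 postnatal cells (left) and 43 embryonic cells (right). Mitosis members exceeded 0.5% of UMIs in 8 ventral midbrain cells, 1 embryonic cortex S1 cell and 2 postnatal cells.

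Shares of cells depended strongly on how many UMIs were asked for. At least 1 mitosis UMI was found in 18 of 25 ventral midbrain cells (72%, exact 95% binomial interval 50.6% to 87.9%) and in 92 of 356 postnatal cells (25.8%, 21.4% to 30.7%). At least 2 different mitosis members were found in 11 of 25 (44%, 24.4% to 65.1%) and 15 of 356 (4.21%, 2.38% to 6.85%). When every cell was thinned to 1000 UMIs, which left out 38 shallower postnatal cells and no ventral midbrain cell, the last pair became 9 of 25 (36%, 18.0% to 57.5%) and 8 of 318 (2.52%, 1.09% to 4.90%). These cells are not replicates of a condition, so no test was made on the shares.

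S-phase transcripts were common after birth as well. At least 1 S-phase UMI was found in 22 of 25 ventral midbrain cells (88%, 68.8% to 97.5%) and in 211 of 356 postnatal cells (59.3%, 53.97% to 64.4%). With 2 or more different members and 1000 UMIs per cell, the shares were 13 of 25 (52%, 31.3% to 72.2%) and 26 of 318 (8.18%, 5.41% to 11.8%). No postnatal cell reached 10 S-phase members, with an exact 95% interval of 0% to 1.03%, while 5 of 25 ventral midbrain cells did. In postnatal cells Pcna, the sliding clamp of DNA polymerase that also serves DNA repair, supplied 281 of the 596 S-phase UMIs (47.1%).

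**Figure D3:**
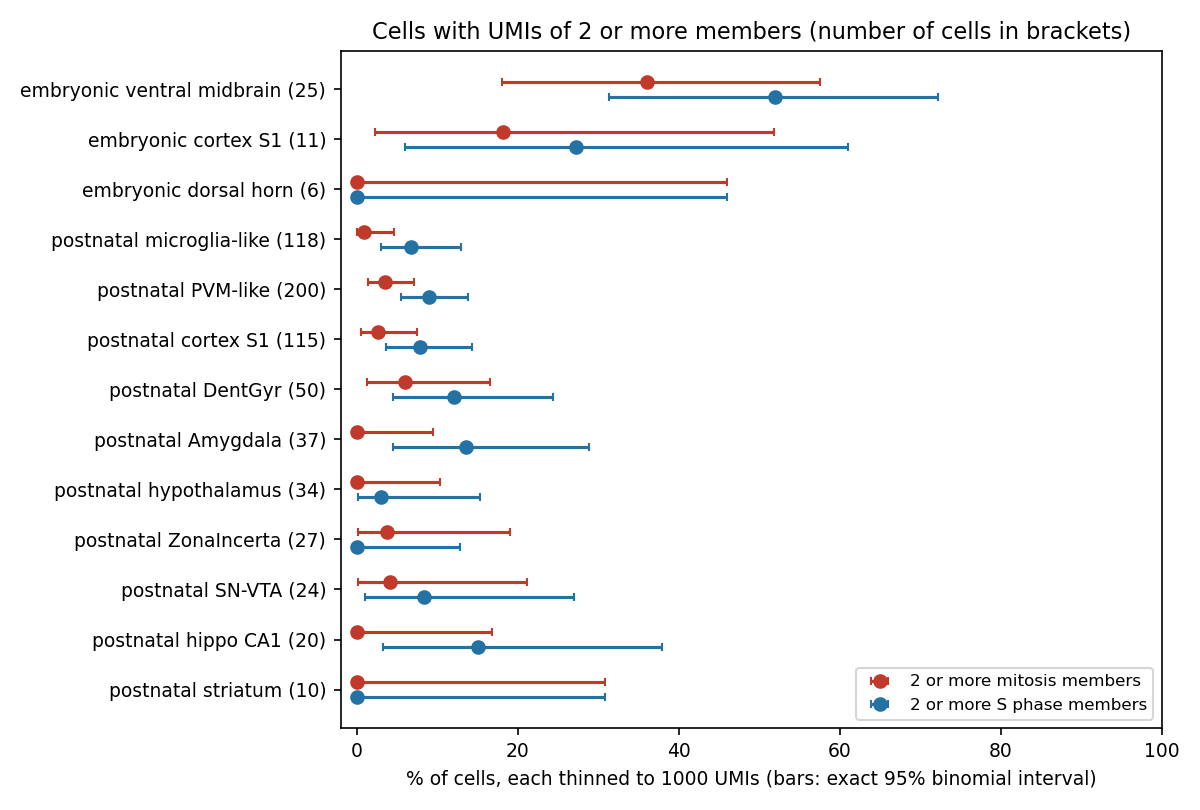
Share of cells (horizontal axis, percent) with UMIs of 2 or more different mitosis members or S-phase members after each cell was thinned to 1000 UMIs, by group, with exact 95% binomial intervals. The ventral midbrain stands at 36% and 52%, while all postnatal rows lie at or below 6% for mitosis members and at or below 15% for S-phase members.

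In the other embryonic cells 1 cell held most of the signal, and it carried myelin RNA. Embryonic cortex S1 summed to 94 mitosis UMIs (2843 CPM, 2298 to 3479) and 3388 CPM of S-phase members (2789 to 4076), and its cell 8, a PVM-like cell, held 87.2% and 70.5% of these UMIs. That cell had 261 UMIs of 12 oligodendrocyte markers among its 8050 UMIs, which goes against its embryonic label. It had 12 mitosis members, with 29 UMIs of Cdk1, and 8 S-phase members. The other 10 cells of this group shared 12 mitosis UMIs. The 7 embryonic dorsal horn cells had 3 mitosis UMIs, all in 1 cell, and 9 S-phase UMIs. At 181 CPM (37.3 to 529) the mitosis sum of the dorsal horn lay at the level of 3 counts, and its interval contained the postnatal value.

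After birth, 2 of 356 cells (0.562%, 0.0681% to 2.01%) carried 10 or more mitosis members. Cell 23 of postnatal cortex S1, of day 22, had 81 UMIs of 21 mitosis members but 5 S-phase UMIs. It clustered as PVM-like, with 48.6% of its panel UMIs from the microglia panel, so its class lay near the middle. Cell 43 of DentGyr, of day 21, had 40 UMIs of 14 mitosis members and 15 S-phase UMIs, and all its panel UMIs were from microglia markers. These 2 cells held 121 of the 295 postnatal mitosis UMIs (41.02%). Without them the postnatal sum fell to 211 CPM (181 to 245). Ccnb1 and Birc5, which encode the mitotic cyclin B1 and the chromosomal passenger protein survivin, then had 0 UMIs in the remaining 354 cells. So did Bub1b, Aurka, Cenpe and Prc1, while Cdc20 had 0 UMIs in all 356 cells. The choice of the 2 cells by their mitosis members partly fixes these falls.

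Across postnatal regions the levels were low and overlapping. Pools of one region and one day with at least 3 cells averaged 237 CPM ± 281 (SD, n = 38) for the mitosis members and 712 ± 432 for the S-phase members. The highest means over region pools were 359 ± 242 CPM (n = 3) for mitosis members in SN-VTA and 1204 ± 491 (n = 2) for S-phase members in striatum, and the lowest were 83.4 ± 98.5 (n = 4) and 394 ± 384 (n = 4), both in ZonaIncerta. In striatum 15 of the 18 S-phase UMIs were of Pcna, and 0 of its 12 cells carried 2 or more S-phase members. The pool ranges of SN-VTA and ZonaIncerta overlapped for the mitosis members, at 166 to 630 CPM and 0 to 192 CPM. SN-VTA, the postnatal midbrain region, had 16 mitosis UMIs over 28 cells, or 296 CPM (169 to 481), and 2 of its cells carried 2 or more mitosis members. No test between regions was made.

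Among the mitosis members, the kinase and cyclin genes, the chromosome-structure genes and the spindle genes were all higher in the summed ventral midbrain cells than in the summed postnatal cells. In RefSeq's GRCm38.p6 annotation Top2a lies at chr11:98992947-99024199, Cdk1 at chr10:69335146-69352912, Cenpf at chr1:189640606-189688107 and Pcna at chr2:132249286-132253180. Top2a had 147 UMIs in 11 of 25 ventral midbrain cells and 28 UMIs in 7 of 356 postnatal cells, a CPM ratio of 36.2 (counting interval 24.0 to 56.4). Cdk1 stood at 851 CPM (695 to 1032) with UMIs in 11 cells against 46.7 CPM (33.2 to 63.9) in 19 cells, a ratio of 18.2 (12.5 to 27.1). Its partner gene Ccnb1 had 43 and 6 UMIs, a ratio of 49.4 (20.9 to 142). With both postnatal classes summed, this was the highest of the 23 members with postnatal UMIs. Among microglia-like cells alone, Ccnb1 stood at 378 CPM in the ventral midbrain and 14.2 (4 UMIs) after birth, and Cdk1 at 906 and 17.7 (5 UMIs). Ube2c had 43 and 0 UMIs in those cells, so the order of the ratios depends on the class mix. In 19 of the 25 ventral midbrain cells Ccnb1 was at 0, and cell 20 alone held 18 UMIs.

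The proliferation marker Mki67 had 34 and 12 UMIs, with a ratio of 19.5 (9.87 to 41.4), and at most 8 UMIs in any ventral midbrain cell. Ube2c, which feeds the anaphase-promoting complex, had 43 and 7 UMIs, with a ratio of 42.4 (18.9 to 111.6). Its activator gene Cdc20 had 11 and 0 UMIs, which makes it at least 25.3-fold higher against a floor of 3 counts over the postnatal group. The kinetochore motor gene Cenpe had 36 and 7 UMIs and Birc5 had 35 and 5, with ratios of 35.5 (15.6 to 94.5) and 48.3 (18.8 to 158). All 36 Cenpe UMIs and all 49 Cenpf UMIs of the ventral midbrain lay in the 8 cells rich in mitosis RNA. The lowest such share of a mitosis member was 72.7%, for Aurkb. The choice of the 8 cells by their mitosis members partly fixes these shares.

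The median ratio of the 24 mitosis members was 19.4, with Cdc20 at its bound. The genes of the spindle checkpoint and of the mitotic kinases had few UMIs in either group. Bub1 had 19 and 5 UMIs, Bub1b 10 and 5, Ttk 3 and 1, Aurka 16 and 3, Aurkb 11 and 5 and Plk1 7 and 4. Those of spindle motors and microtubule binding were similar, with 10 and 5 for Kif11, 7 and 3 for Kif20a, 18 and 10 for Kif23, 23 and 5 for Nusap1, 14 and 5 for Tpx2 and 32 and 8 for Prc1, and the cyclin gene Ccna2 had 10 and 4. Their ratios lay between 12.1 (Plk1) and 36.8 (Aurka).

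The lowest ratios belonged to the centromere genes Cenpf, at 3.48 (2.42 to 4.96), and Cenpa, the centromeric histone, at 3.58 (1.73 to 7.06). These ratios set a group of 24 microglia-like cells and 1 PVM-like cell against postnatal cells of which 219 were PVM-like. Among microglia-like cells alone, Cenpf stood at 431 CPM (319 to 570) in the ventral midbrain and 24.8 (9.99 to 51.2) after birth, and Cenpa at 123 (67.3 to 207) and 7.10 (0.860 to 25.6). For Ccnb2, with 3 and 4 UMIs, the interval reached below 1 (0.758 to 30.6), and the 23 other intervals lay above 1. Ratios of summed cells carry no biological error.

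The S-phase members had smaller ratios, with a median of 5.93 over 16 genes. Rrm2, the regulated subunit of ribonucleotide reductase, had 33 UMIs in 7 ventral midbrain cells and 8 UMIs in 3 postnatal cells. With both postnatal classes summed, its ratio was the highest of the group at 28.5 (12.9 to 71.3). Its partner subunit gene Rrm1 had 32 and 35 UMIs, a ratio of 6.31 (3.78 to 10.5). The helicase gene Mcm5 had 23 and 10 UMIs, a ratio of 15.9 (7.26 to 37.3), while Mcm3, of the same ring, had 25 and 41, a ratio of 4.21 (2.45 to 7.08).

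Fen1, the flap endonuclease of lagging-strand synthesis, had 35 UMIs in 13 ventral midbrain cells, the widest spread of any member after Pcna, and a ratio of 10.5 (6.03 to 18.6). Tyms, which makes thymidylate, had 37 and 27 UMIs, a ratio of 9.45 (5.60 to 16.1). Pcna had 137 UMIs in 17 of 25 ventral midbrain cells and 281 UMIs in 134 of 356 postnatal cells, a ratio of 3.36 (2.72 to 4.14). The intervals of Mcm2 (0.705 to 4.59) and of the polymerase gene Pola1 (0.686 to 3.82) contained 1. The S-phase ratios too set mostly microglia-like cells against both postnatal classes. Among microglia-like cells alone, Tyms had 37 ventral midbrain UMIs against 2 after birth, Rrm2 33 against 6 and Pola1 8 against 5. The total UMIs of these 2 sets of cells were 113742 and 281708. Tyms then ranked above Rrm2, so the order of the ratios depends on the class mix. The helicase genes Mcm4, Mcm6 and Mcm7 had 16, 25 and 12 ventral midbrain UMIs against 22, 31 and 21, with ratios of 5.02, 5.56 and 3.94. Gins2 and Cdc45, which complete the active helicase, had 10 and 8 UMIs against 19 and 4, with ratios of 3.63 and 13.8, and the primase gene Prim1 had 13 against 12, a ratio of 7.47. Cdc6, which loads the helicase, had 5 UMIs in 2 ventral midbrain cells, neither of them among the 8.

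**Figure D4:**
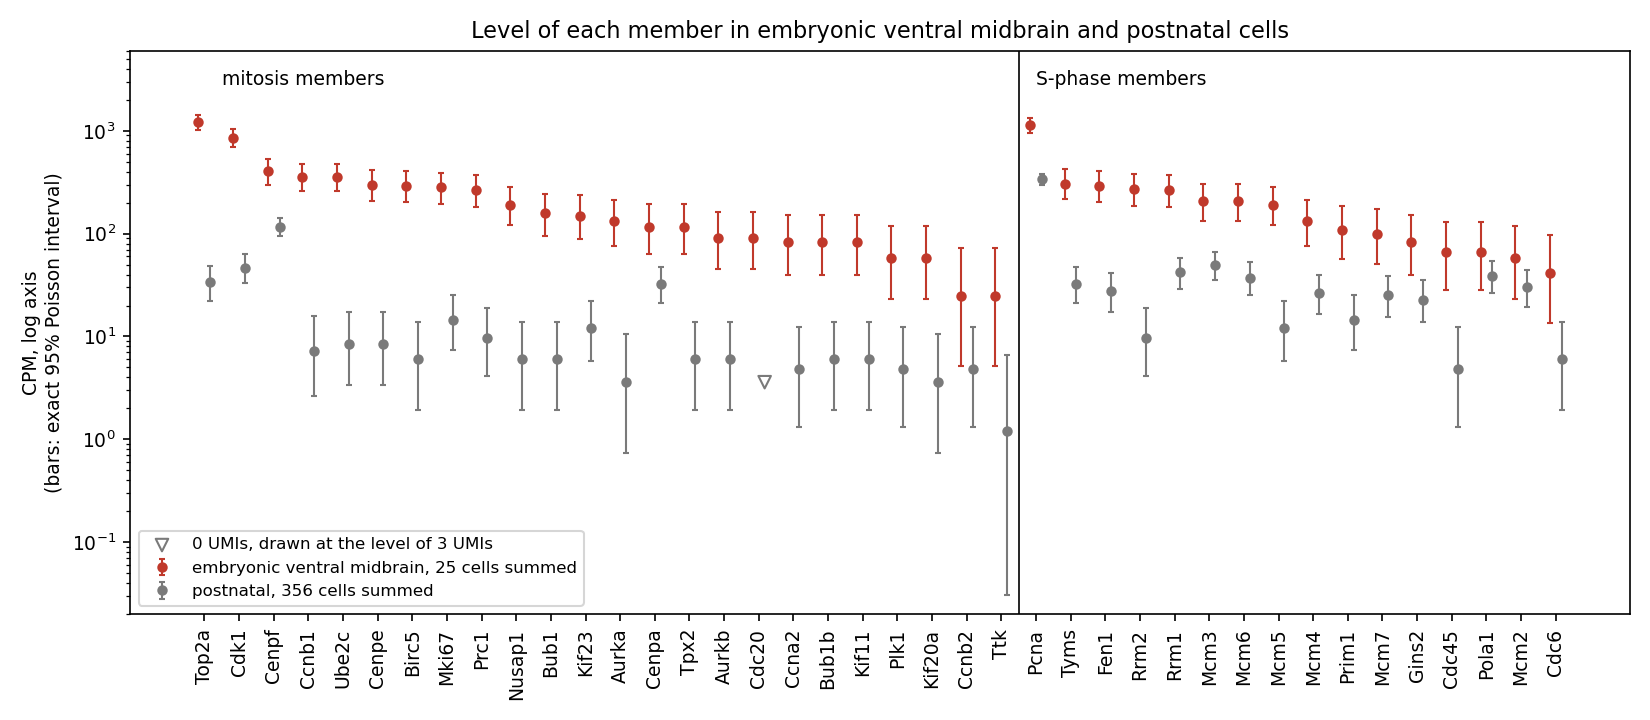
CPM of each of the 40 members (log axis) summed over the 25 embryonic ventral midbrain cells and over the 356 postnatal cells, with exact 95% Poisson intervals and an open triangle at the level of 3 UMIs for Cdc20, which had 0 postnatal UMIs. With both postnatal classes summed, the gap is narrow for Cenpf and Cenpa among mitosis members, whose postnatal UMIs lay mostly in PVM-like cells, and for Pcna, Mcm2 and Pola1 among S-phase members. Of the 32 postnatal Pola1 UMIs, 27 lay in PVM-like cells.

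The comparison between stages over samples was made with edgeR's quasi-likelihood test and Benjamini-Hochberg adjustment over all genes tested, on 3 embryonic pools of one region each against 38 postnatal pools of one region and day. With a filter on low counts, 617 genes were tested and 2 were called at an adjusted p under 0.05, which is 0.324% of those tested. Only Cdk1 and Pcna of the 40 members passed that filter. Cdk1 was higher in the embryonic pools by 3.93 ± 0.72 (log2, SE; edgeR adjusted p = 0.000549), with 851 CPM in the ventral midbrain pool, 1028 in the cortex S1 pool and 60.4 (1 UMI) in the dorsal horn pool. It was not called by DESeq2 (log2 4.05, adjusted p = 0.0526) or by edgeR without the ventral midbrain pool (log2 3.57, adjusted p = 0.148). In cortex S1, 29 of its 34 UMIs came from cell 8, the cell with 261 oligodendrocyte UMIs. Without the cortex S1 pool Cdk1 was still called (log2 3.79, edgeR adjusted p = 0.00612). Pcna differed by 1.65 ± 0.60 and did not pass (edgeR adjusted p = 0.315).

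Without the filter, all 40 members were tested among 14072 genes, of which 2.1% were called higher and 0.0569% lower in embryonic pools. Of the 24 mitosis members 21 rose, with a median log2 difference of 3.16, and of the 16 S-phase members 7 rose, with a median of 1.93, against a median of 0.11 over all genes tested. With cells thinned to 1000 UMIs, 11 of these 28 members were still called, beside 0.817% of all genes tested, and 2 changed sign. Top2a was higher by 4.33 ± 0.56 (log2, SE; edgeR adjusted p = 1.13e-10), Ube2c by 4.19 ± 0.66 (adjusted p = 1.83e-07) and Rrm2 by 3.45 ± 0.67 (adjusted p = 6.07e-05). In the ventral midbrain, cortex S1 and dorsal horn pools Top2a had 147, 8 and 0 UMIs, Ube2c 43, 3 and 0, and Rrm2 33, 2 and 0. Each of these cortex S1 counts came from 1 cell. Top2a, Ube2c and Rrm2 were not called without the ventral midbrain pool. Cenpf, Cenpa and Ttk did not pass, with log2 differences of 1.90, 2.15 and 1.59 and adjusted p of 0.0817, 0.125 and 0.161. Without the ventral midbrain pool 6 of these 28 members were still called, beside 0.512% of all genes, and 9 changed sign. Without the cortex S1 pool 25 of the 28 were still called, beside 1.77% of all genes. Without the dorsal horn pool all 28 were, beside 2.33%.

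At the level of chips, the 6 ventral midbrain chips with 2 or more cells were compared with 90 postnatal chips in the same way. With the filter, 134 genes were tested, none of them a member, 42.5% were called, 3.73% higher and 38.8% lower, and the median log2 difference of the genes tested was -0.77. Without it, 4.86% of 13765 genes were called, 4.42% higher and 0.436% lower. Of the 24 mitosis members 23 rose, with a median log2 difference of 3.37, and of the 16 S-phase members 12 rose, with a median of 2.14, against 0.02 over all genes. The members that did not pass were Ccnb2, Mcm2, Gins2, Cdc6 and Pola1, with log2 differences of 1.14, 1.05, -0.11, 1.72 and 0.59.

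The 6 chips themselves were uneven. Their mitosis sums were 21726, 10398, 9806, 277, 200 and 113.5 CPM, so 3 chips were high and 3 lay within the range of the postnatal region pools. Top2a averaged 1111 CPM ± 1207 (SD) over the 6 chips and 29.6 ± 212 over the 90, and was detected on 4 and 5 chips. Its log2 difference was 4.81 ± 0.47 (SE; edgeR adjusted p = 3.30e-19), in a fit that assumes 1 spread for both groups although the SD among the ventral midbrain chips was larger. Pcna was detected on all 6 chips, from 227 to 3329 CPM, and differed by 2.15 ± 0.57 (edgeR adjusted p = 0.00757). Leaving out 1 ventral midbrain chip at a time left 24 to 35 members called, beside 2.74% to 4.56% of all genes tested. With at least 3 cells per chip, 2 ventral midbrain chips remained, both of them low. There 0 of the members and 0.375% of all genes were called. With cells thinned to 1000 UMIs, 6 members were still called, beside 0.411% of all genes. Against SN-VTA chips alone 9 were, beside 1.45% of all genes.

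Many other genes of the cell cycle also rose. In the chip comparison without the filter, where 4.42% of all genes rose and 0.436% fell, 53 of 88 other mitosis genes tested and 25 of 60 other S-phase genes rose, with median log2 differences of 2.16 and 1.58. Among those with the smallest p, the kinetochore genes Spc25 and Spc24 had 19 and 26 ventral midbrain UMIs against 2 each in postnatal cells, and differed by 4.00 ± 0.42 and 3.88 ± 0.41 (log2, SE; edgeR adjusted p = 4.16e-15 and 3.08e-14). The chromatin gene Hmgb2 stood at 1513 against 125 CPM. Of 45 cell cycle regulators tested, 8 rose and 1 fell. The regulator that fell was Gadd45b, a stress-response gene, by 3.47 ± 1.01 on the log2 scale (edgeR adjusted p = 0.0193), with 1 ventral midbrain UMI against 140. With the filter, the antiproliferative gene Btg2 was lower by a log2 of -2.52 ± 0.61 (edgeR adjusted p = 0.00064), at 190 against 1305 CPM, in a fit that called 38.8% of genes lower. Btg2 was not called without the filter (log2 -2.21, edgeR adjusted p = 0.119) or between stages (log2 0.30 with the filter and 0.47 without it, edgeR adjusted p = 0.852 and 0.835).

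Genes outside these lists that tracked the mitosis sum across the 25 ventral midbrain cells were ranked by Spearman correlation, as a description, among 1398 genes with at least 20 UMIs. The 8 highest were Ezh2 (0.83), the histone methyltransferase of Polycomb, Kpna2 (0.80), a nuclear import factor, Nmral1 (0.75), the splicing factor gene Ptbp1 (0.73), Hist1h2ap_loc1 (0.68), Fam60a (0.65), Rfwd3 (0.64) and Hist1h2ap_loc2 (0.62). The 2 histone entries stood at 1248 and 884 CPM with UMIs in 8 and 9 of the 25 cells, and as near-identical histone copies their counts are uncertain. The 4 lowest were Scamp2 (-0.67), Sirpa (-0.65), Prex1 (-0.62) and Sepp1 (-0.60). Sirpa, a macrophage inhibitory receptor, and Sepp1, the selenium carrier, had UMIs in 24 and 25 of the cells. All points share library totals, and the mitosis sum itself correlated with total UMIs at 0.48.

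Between the postnatal classes, Cenpf was the member whose difference passed the test. It had 90 UMIs in 44 of 219 PVM-like cells (20.1%, 15.0% to 26.0%) and 7 UMIs in 3 of 137 microglia-like cells (2.19%, 0.454% to 6.27%). At 1000 UMIs per cell the shares were 12.5% (8.26% to 17.9%) and 1.69% (0.206% to 5.99%). The PVM-like cells with a Cenpf UMI lay on 34 chips, in 7 regions and on 10 days. Of these 44 cells, 34 had no UMI of any other mitosis member, and neither did 2 of the 3 microglia-like cells with Cenpf. Each of the 5 ventral midbrain cells with Cenpf had others. By region, the share of PVM-like cells with a Cenpf UMI was highest in DentGyr, with 5 of 13 (38.5%, 13.9% to 68.4%). Cortex S1 had 26 of 98 (26.5%, 18.1% to 36.4%) and hypothalamus 1 of 26 (3.85%, 0.0973% to 19.6%). The lowest was ZonaIncerta with 0 of 17, with an exact 95% interval of 0% to 19.5%. These regional shares were not thinned, and the median depth over all cells was 2653 UMIs in postnatal cortex S1 and 1309 in ZonaIncerta.

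The classes were compared over 11 postnatal days, with the day as a block. Cenpf did not pass the filter on low counts. In the fit without it, 2.99% of 13830 genes were called, 2.08% higher in PVM-like cells and 0.918% lower. Cenpf was the only member called, higher by 3.11 ± 0.63 (log2, SE; edgeR adjusted p = 6.53e-05), and higher in PVM-like cells on 9 of 11 days, with 0 UMIs in both classes on the other 2. Its level averaged 199 CPM ± 265 (SD, n = 11) in PVM-like pools, from 0 to 957, and 13.6 ± 30.8 in microglia-like pools, from 0 to 101.4. Without the 2 postnatal cells rich in mitosis RNA the difference was 4.19 ± 0.74 (adjusted p = 1.71e-06). PVM-like pools also held more oligodendrocyte RNA, with 47975 against 28757 CPM over the class, and its part in the Cenpf counts was not tested.

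For the other members tested the class difference did not pass, which does not show that the classes were alike. Cdk1 had 34 UMIs in 17 of 219 PVM-like cells and 5 in 2 of 137 microglia-like cells. As with Cenpf, it was higher in PVM-like pools on 9 of 11 days and at 0 in both classes on the other 2, at 53.6 CPM ± 45.8 against 8.95 ± 24.5 (SD, n = 11). Cdk1, Cenpa and Tyms were the nearest, with log2 differences of 2.04 ± 0.83, 2.40 ± 0.95 and 2.47 ± 0.94 (SE) and edgeR adjusted p of 0.261, 0.227 and 0.183. Pcna, the only member to pass the filter, averaged 323 CPM ± 183 in PVM-like pools and 379 ± 217 in microglia-like pools (log2 -0.15 ± 0.36, edgeR adjusted p = 0.833), and the pools overlapped. In that filtered fit 22.1% of 1442 genes were called, of which PVM-like pools had the higher level for 12.8% and the lower level for 9.36% of genes tested. Among 6 cell cycle regulators tested there, the p53 target Cdkn1a, which encodes the Cdk inhibitor p21, was lower in PVM-like pools by a log2 of -1.52 ± 0.44 (edgeR adjusted p = 0.00816), at 81.6 ± 88.3 against 292 ± 101.4 CPM (SD, n = 11), and Gadd45b by -1.26 ± 0.44 (adjusted p = 0.031). Without the filter Cdkn1a was still called (edgeR adjusted p = 0.0443) and Gadd45b was not.

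**Figure D5:**
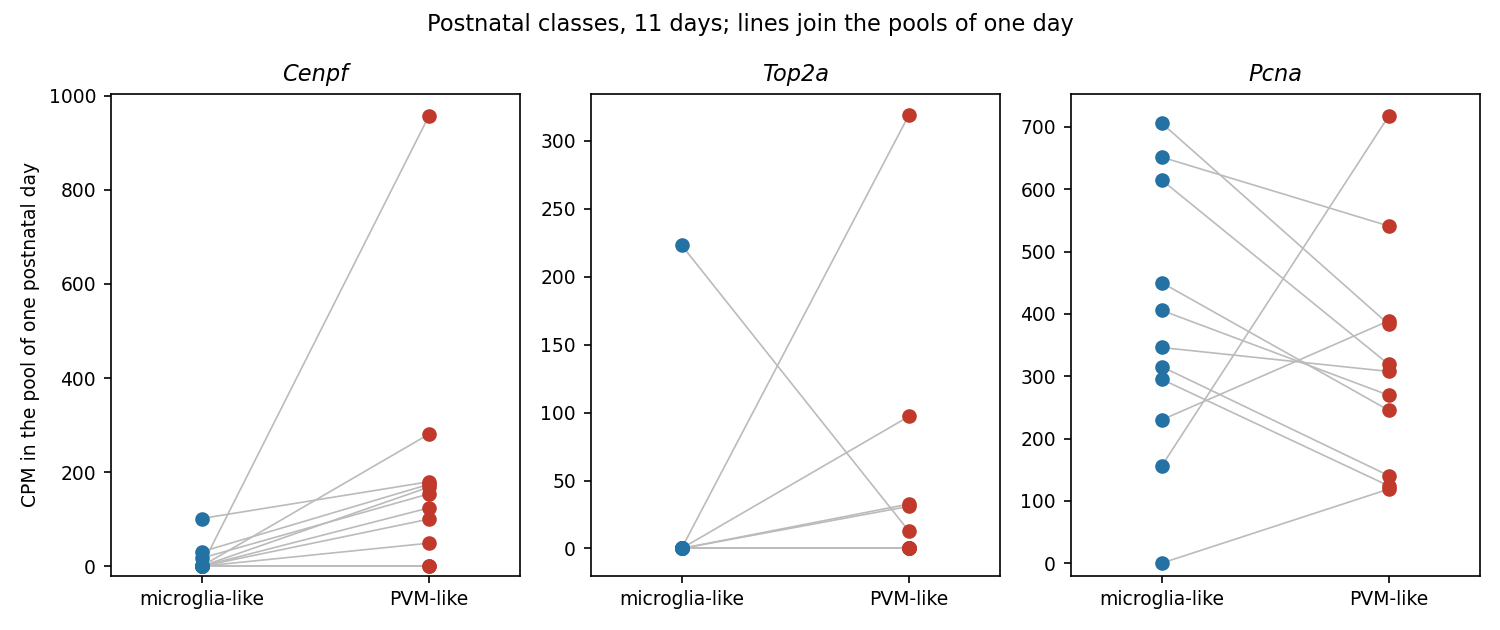
CPM of Cenpf, Top2a and Pcna in pools of microglia-like and PVM-like postnatal cells of each of 11 days, with lines joining the pools of one day. Cenpf was higher in PVM-like cells on 9 days, Top2a was at 0 in most pools, and Pcna overlapped.

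The promoters of the members were read for motifs because many mitosis and S-phase members rose. In background, the cell cycle homology region (CHR) and CCAAT boxes are common in promoters of late cell cycle genes, and E2F sites in those of replication genes. RefSeq windows of GRCm38.p6, from 250 bases before to 50 after a start site, were matched for 34 of the 40 members. The CHR was searched as TTTGAA or TTCGAA, the CCAAT box as CCAAT, and E2F as TTTCCCGC, TTTGGCGC, TTTCGCGC or TTTGCCGC, all on both strands. TTCGAA reads the same on both strands and was counted once, and E2F matches on opposite strands can overlap.

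A CHR match was present in 80.95% of the 21 windows of mitosis members, 25% of the 16 windows of S-phase members and 19.2% of all 32851 windows. A CCAAT match was present in 90.5%, 75% and 37.4%, and both together in 80.95%, 18.8% and 7.52%. An E2F match was present in 4.76%, 37.5% and 2.26%, and Cdk1 was the mitosis member that had one. Among the members with the largest ratios, Birc5 and Ccnb1 had no CHR match in this window. A match is a description of the letters, not of binding.

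The stretches below lie before the start site and show the motifs in capitals, 5′ to 3′ on the gene's strand. They stand for the mitosis members with the most ventral midbrain UMIs (Top2a, Cdk1), for mitosis members with 1 CHR match in the window (Ube2c, Cdc20), for Cenpf, which differed between the classes and has CCAAT matches only in this stretch, and for Mcm6, an S-phase gene with 3 E2F matches.
Top2a, chr11:99024190-99024339, minus strand: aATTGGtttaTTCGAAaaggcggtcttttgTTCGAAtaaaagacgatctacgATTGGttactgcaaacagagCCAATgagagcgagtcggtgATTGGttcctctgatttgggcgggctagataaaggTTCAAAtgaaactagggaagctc
Cdk1, chr10:69352913-69353062, minus strand: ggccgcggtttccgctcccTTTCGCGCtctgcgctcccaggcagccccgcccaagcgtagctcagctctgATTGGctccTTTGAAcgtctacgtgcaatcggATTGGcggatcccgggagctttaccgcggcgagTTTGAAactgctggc
Ube2c, chr2:164769821-164769925, plus strand: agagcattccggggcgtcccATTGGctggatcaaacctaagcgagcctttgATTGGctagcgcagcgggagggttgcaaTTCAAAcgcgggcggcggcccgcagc
Cdc20, chr4:118437344-118437416, minus strand: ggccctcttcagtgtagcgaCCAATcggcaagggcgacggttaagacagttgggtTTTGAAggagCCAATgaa
Cenpf, chr1:189688133-189688238, minus strand: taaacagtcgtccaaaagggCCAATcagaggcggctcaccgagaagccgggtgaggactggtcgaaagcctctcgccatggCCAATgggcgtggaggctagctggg
Mcm6, chr1:128359706-128359835, minus strand: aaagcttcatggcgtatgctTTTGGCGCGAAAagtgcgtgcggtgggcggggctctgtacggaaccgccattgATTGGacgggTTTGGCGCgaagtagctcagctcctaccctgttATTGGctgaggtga

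In these stretches the CHR of Ube2c began 29 bases before the start site and that of Cdc20 18 bases before it. Cdk1 had CHR matches 71 and 15 bases before the start, and Top2a 140, 120 and 23 bases before it, with another match further upstream of the stretch shown. The first E2F match of Mcm6 began 110 bases before its start, the next overlaps it on the opposite strand, and the last began 47 bases before the start. Cenpf had its only CHR match in the window after the start site.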

How the data were processed

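RNA of 425 single cells was counted. The authors deposited raw counts, whole numbers of UMIs per gene name and cell with no normalization, and the genome build mm10 comes from the submitters' processing notes. The aligner is not given in the sources used here. The summed count per cell was 729 at the lowest, 1995 at the median and 10260 at the highest. The members and gene lists were chosen with earlier results of these data known.

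Left out were 16 cells labelled sscortex, in which 15 pan-macrophage genes summed to 599.7 CPM against 26972 in postnatal cells, 4 cells from bone marrow and epidermis, and 6 older brain cells. Classes came from Ward clustering on marker genes, scaled to 2000 UMIs and log-transformed, in 3 clusters, and doublets were not called. The microglia-like cluster had Spc25 and Ccnb1 among its 10 leading genes by fold. Counts were summed into pools of at least 3 cells, or chips and class pools of at least 2.

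Tests used edgeR 4.0.16 under R 4.3.3: a robust quasi-likelihood fit with TMM scaling, after filterByExpr set to 10 counts per pool and 15 overall. Calls needed a Benjamini-Hochberg adjusted p under 0.05 over every gene tested. P-values measure the spread between pools, which may share animals. Because the filter removed nearly all members, fits without a filter were read for all 40. Tested on simulated data, the unfiltered stage and chip fits recovered most large rises, recovered no falls and called some unchanged genes, so a lack of lower calls there carries no weight. The simulation gave every gene and pool the same spread, whereas the ventral midbrain chips were uneven, so its recovery rates may not hold for the members. Named genes were the 8 mitosis and 6 S-phase members with most ventral midbrain UMIs, members with 5 or more postnatal UMIs or called in a test, and called genes of other lists with the smallest p; others named were chosen after their values were seen. Alternatives were DESeq2 1.42.0, its size factors, other filters and pool sizes, thinning to 1000 UMIs, microglia-like cells alone and leaving out single pools. Python 3.11.15 with scipy 1.17.1 gave exact intervals.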

Additional observations from a re-analysis of the deposited data

Results flagged for a closer look

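Among 12 sets of postnatal day pools tested for a value far from the others, 3 had one, and chance gives about 1 in 20. That rate may not hold for pools with few UMIs, so no excess is read from it. The Amygdala pool of day 25 had 18 S-phase UMIs over 7 cells, or 1671 CPM, against 264 to 751 CPM in the 5 other Amygdala pools. The DentGyr pool of day 21 stood at 1424 CPM for the mitosis members, against at most 163 in the 5 others, and 40 of its 55 UMIs came from cell 43. The cortex S1 pool of day 22 stood at 839.5 CPM for the mitosis members, against at most 363 in the 7 others, and 81 of its 100 UMIs came from cell 23.

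Signal of the members was also present in cells that no comparison used. The 16 cells labelled sscortex had 23 mitosis UMIs, or 383 CPM (exact Poisson 95% interval 243 to 575), and 34 S-phase UMIs, or 566 CPM (392.2 to 791). Their mitosis UMIs lay in 9 of 16 cells and none of these cells had 10 members. The 2 epidermis cells had 5 mitosis UMIs, or 397 CPM (129 to 926).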

How the results depend on the processing

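The stage comparison with a filter called 2 genes and 1 member. It called 5 genes and 0 members with DESeq2, 0 and 0 with a minimum count of 20, with cells thinned to 1000 UMIs, with at least 2 cells per pool and with microglia-like cells only, 1 and 0 with at least 5 cells per pool, 7 genes with cortex S1 and midbrain only, and 303 genes and 28 members without the filter. Leaving out 1 embryonic pool gave 0 to 8 genes and 0 to 1 members, and 71 to 327 genes and 6 to 29 members without the filter. The 0 came without the ventral midbrain, the 8 without cortex S1. Unfiltered and thinned, 11 members were called.

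The chip comparison called 57 genes with the filter, 669 genes and 35 members without it, 29 genes at a minimum count of 20, 10 when thinned, 12 with at least 3 cells per chip, 15 with microglia-like cells only and 18 against SN-VTA chips. Unfiltered, 51 genes and 6 members were called when thinned, 49 and 0 with at least 3 cells per chip and 154 and 9 against SN-VTA chips. Leaving out 1 ventral midbrain chip gave 55 to 61 genes with the filter. Without the filter it gave 376 to 627 genes and 24 to 35 members, the 24 without the chip of cells 14 and 15.

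The class comparison called 319 genes and 0 members with the filter, 1 member without it, 154 genes at a minimum count of 20, 149 when thinned, 110 without the day as a block and 135 when pairs were split by region as well as day. Cenpf was called in all 5 unfiltered alternatives.

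Some log2 changes turned sign, none of them called. Without the ventral midbrain pool these were Ccnb1 -0.97, Bub1 -0.93, Bub1b -0.74, Aurka -0.58, Plk1 -0.75, Birc5 -0.79, Cenpe -0.96, Tpx2 -0.84 and Prc1 -1.04, beside an all-gene median of -0.46. When thinned they were Ccnb2 -0.23 and Cdc45 -0.69 between stages, and Aurkb -0.28 and Cdc45 -0.38 between chips. Cdc45 was -0.41 without the chip of cells 14 and 15, and up to 2.26 without another ventral midbrain chip. With at least 3 cells per chip they were Mki67 -1.24, Ccnb1 -0.44, Ccna2 -0.61, Bub1 -0.87, Bub1b -0.76, Aurka -0.24, Aurkb -0.48, Plk1 -0.58, Cenpe -0.90, Cenpf -3.42, Cenpa -2.20, Kif11 -0.72, Kif20a -0.66, Kif23 -1.45, Nusap1 -0.66, Tpx2 -0.61, Prc1 -1.02, Ttk -0.26, Mcm3 -2.66, Mcm7 -1.79, Rrm2 -0.28, Cdc45 -0.42 and Fen1 -1.96, beside an all-gene median of -0.26. That setting keeps 2 of the 6 ventral midbrain chips, both low. For other changes the cause was not tested.

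The ventral midbrain mitosis sum of 5769 CPM became 4483 as a mean over cells, 4554 without Top2a and 4348 to 6733 without 1 chip (6555, 5131 and 5114 among them). Its S-phase sum of 3521 became 3007 as a mean over cells, 2389 without Pcna and 2604 to 4053 without 1 chip. The postnatal mitosis sum of 354 became 283 as a mean over cells, 237 without Cenpf, 188 in microglia-like cells and 211 without the 2 mitosis-rich cells, and the S-phase sum of 714 became 377 without Pcna. The share of ventral midbrain cells with mitosis transcripts went from 72% to 44% with 2 members or with 3 UMIs, and with S-phase transcripts from 88% to 68% when thinned. In postnatal cells the mitosis share of 25.8% became 4.21% with 2 members, 6.18% with 3 UMIs, 16.7% when thinned, 8.03% in microglia-like cells and 15.7% without Cenpf. The S-phase share of 59.3% became 23.6%, 24.2% and 40.9% under the first 3 of these and 39.3% without Pcna. Relative to the main fits, DESeq2's size factors moved the unfiltered all-gene median to -0.19 between stages and -0.18 between chips, with 175 and 483 genes and 26 and 31 members called. It stood at 1.03 against SN-VTA chips, and at 0.52 and 0.36 with microglia-like cells only. Members with few UMIs limit all fits. No paired analysis was possible because replicate numbers only name cells in accession order, except between the classes, which were paired by day.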
